A study of Mus musculus with 10 samples.

Results

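The genes described here are 10 transcriptional targets of the bone morphogenetic protein (BMP) pathway, chosen by name: the inhibitor of DNA binding genes Id1, Id2, Id3 and Id4, the SMAD genes Smad6, Smad7 and Smad9, and Atoh8, Bambi and Tmem100. All 10 were found among the 55385 gene rows of the deposited tables, and 8 of them passed the filter on low counts, all but Id4 and Tmem100. They were measured in RNA from frozen, homogenised whole mouse liver, in 5 control libraries (genotype label Ctrl) and 5 libraries of the group Alk1-HEC-KO (genotype label KO), where Alk1 is another name of Acvrl1. The letters HEC, the Cre driver, and the strain, age and sex of the mice are not given in the sources used here, and neither is whether each library came from its own animal, so p-values measure only the spread between these libraries, which may be technical.

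ALK1 is a type I receptor of endothelial cells that binds ligands of the BMP family. Activated type I receptors phosphorylate SMAD1, SMAD5 and SMAD9, which enter the nucleus with SMAD4 and switch on a small set of immediate targets, among them the ID genes. Several of the induced genes encode brakes on the same pathway, so their transcript levels are commonly read as a measure of signal strength. In liver, endothelial cells make BMP ligands that act on hepatocytes, where the pathway drives the iron hormone hepcidin together with ID and inhibitory SMAD genes, so in whole liver these transcripts can come from both cell types. Fewer cells of a type and less RNA per cell cannot be told apart in such samples.

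None of the 8 genes that passed the filter was called by the count test after adjustment over all tested genes. Id4 and Tmem100, fitted only with a looser filter, were not called either. This does not show that the groups were equal. The unadjusted intervals of Id2 and Id3, given below, lay above 0, and those of the rest of the 8 spanned it. The 4 ID genes leaned higher in the libraries labelled knockout. Depth was even, from 20907368 to 21556461 estimated counts per library. Acvrl1 itself stood at 0.296 to 1.05 TPM (a level scaled for transcript length and library size) in control libraries and at 1.12 to 1.92 TPM in the labelled knockout libraries, a direction that goes against the label. The groups did not overlap, as for 1.57% of the 18478 genes with at least 10 counts. Acvrl1 was not called, with a log2 fold change of 0.99 (standard error 0.32, adjusted p = 0.34 by the count test in edgeR). The group is therefore named labelled knockout, and each direction rests on the label. Counts summed over a gene cannot tell a transcript that lacks a floxed exon from an intact one. The defining hepatocyte markers were present in every library, with 8 genes summing to 50500 to 92600 TPM in controls and in the labelled knockout group to 60500 to 92700 TPM. The sum of 12 pan-endothelial markers ran from 33.6 to 57.8 TPM among controls and from 46.1 to 96.9 TPM in the labelled knockout group, and 11 of the 12 pointed higher without any being called. None of those 12 markers was at 0 in all libraries. The part of the endothelial level in the results on single genes was not tested, and its values are set beside them below. Control library 4 and labelled knockout libraries 4 and 5 stood apart by the acute phase gene Saa1 (6586, 6733 and 13331 TPM, at most 874 TPM elsewhere), and control libraries 1 and 2 by the immediate early gene Fos (27.6 and 24.2 TPM, at most 4.92 TPM elsewhere).

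The levels of the 10 genes spanned a wide range. Id2 was the most abundant, with a mean of 63.8 TPM over the 10 libraries, followed by Id3 (18.8 TPM), Atoh8 (8.44 TPM) and Id1 (4.98 TPM). Smad7, Smad9 and Smad6 averaged 1.76, 1.75 and 1.60 TPM, and Bambi, Tmem100 and Id4 0.428, 0.198 and 0.137 TPM. Id2 lay above Id3 and Id3 above Atoh8 in 10 of 10 libraries, and Id1 above Smad7 likewise. Atoh8 lay above Id1 in 8 libraries. Smad7, Smad9 and Smad6 had no fixed order, since Smad7 exceeded Smad9 in 5 libraries and Smad9 exceeded Smad6 in 5, and Tmem100 exceeded Id4 in 4.

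**Figure D1:**
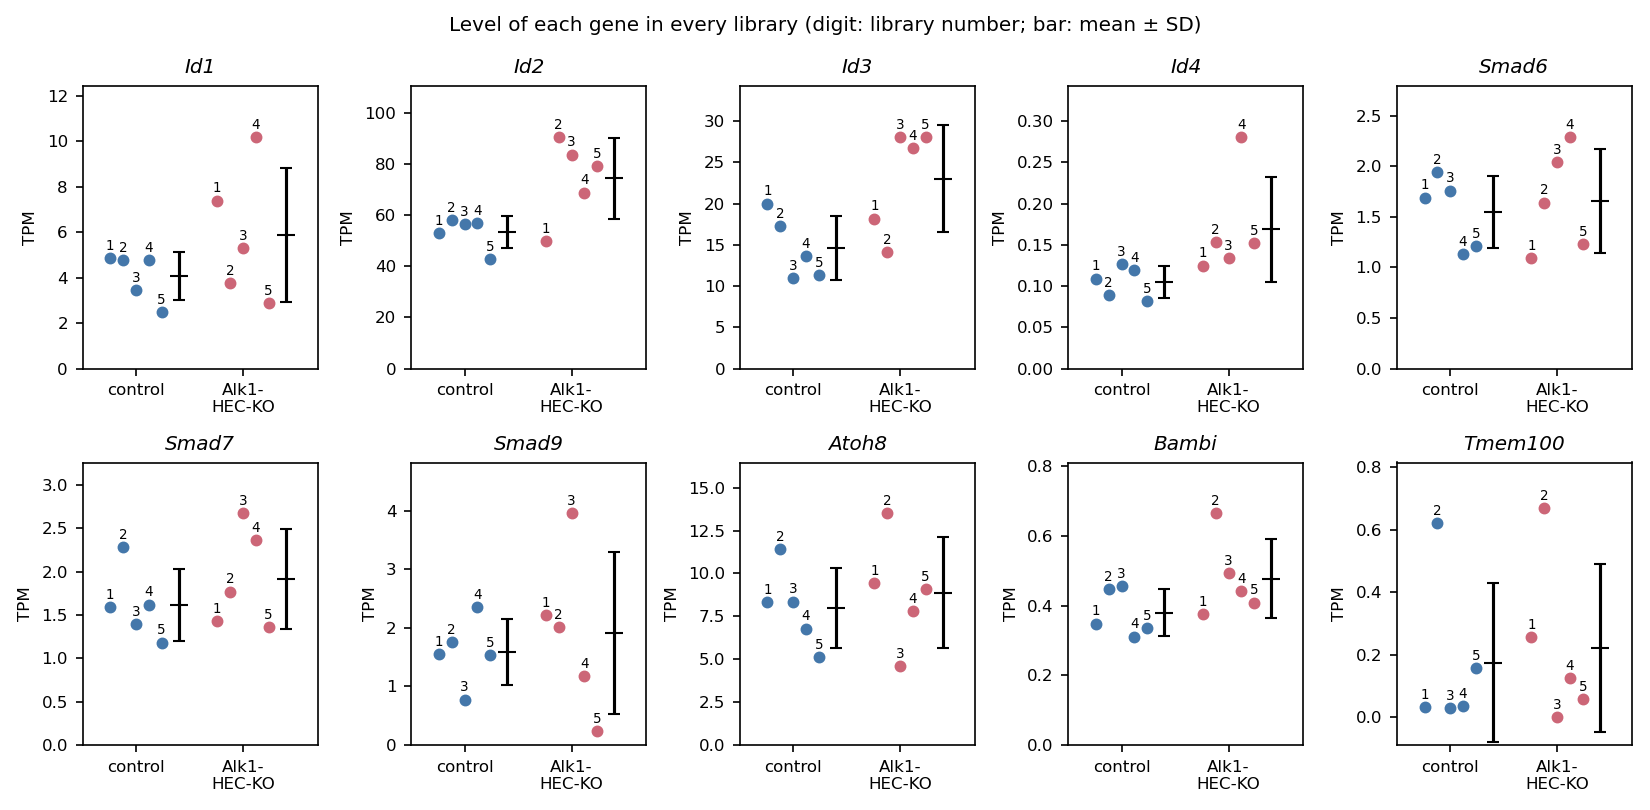
Level in TPM (vertical axis, linear, a separate scale per gene) of the 10 genes in each library, by group, with the library number beside each point and the mean ± SD of 5 libraries beside each group. The groups overlap for every gene, and 4 of 5 labelled knockout libraries lie above the highest control for Id2 and for Id4.

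Id2 encodes an ID protein, a helix-loop-helix protein that lacks a DNA-binding region and binds E proteins, thereby keeping them from DNA. Its gene (ENSMUSG00000020644.9) lies on chromosome 12 from 25093799 to 25097140 on the minus strand (GRCm38). Control libraries 1 to 5 held 52.8, 58.1, 56.4, 56.7 and 42.7 TPM of Id2. The labelled knockout libraries held 49.8, 90.6, 83.6, 68.7 and 79.0 TPM. Labelled knockout libraries 2 to 5 all lay above the highest control, while library 1 lay within the control range. The means were 53.3 ± 6.23 and 74.3 ± 15.9 TPM (SD, n = 5 each), a log2 fold change on counts of 0.40 (standard error 0.18, 95% interval 0.02 to 0.79) that did not pass over all tested genes (adjusted p = 0.58, quasi-likelihood test in edgeR with Benjamini-Hochberg adjustment). On TPM the unadjusted exact two-sided permutation p was 0.0397.

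The difference in Id2 was uneven over 3 runs of close file numbers, whose meaning the labels do not give. With file numbers in order, a gap of more than 4 was taken to start another run. The first run holds control libraries 1 and 2 (52.8 and 58.1 TPM) and labelled knockout library 1, which lay below both at 49.8 TPM. The second holds control libraries 3 to 5 and labelled knockout library 3, which lay above all 3 of them at 83.6 TPM. The third holds labelled knockout libraries 2, 4 and 5 and no control. With the run as a covariate the log2 fold change of Id2 was 0.15 (standard error 0.22, edgeR adjusted p = 1.0), and without the third run it was 0.14.

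Id3 encodes a second ID protein and is among the quickest BMP-induced genes in endothelium. It lies on chromosome 4 from 136143497 to 136145755 (ENSMUSG00000007872.3). The control libraries held 20.04, 17.3, 10.95, 13.6 and 11.3 TPM of Id3. The labelled knockout libraries held 18.2, 14.1, 28.1, 26.7 and 28.1 TPM. Libraries 3, 4 and 5 of the labelled knockout group lay above every control, and libraries 1 and 2 lay among the controls. The group means were 14.7 ± 3.94 and 23.0 ± 6.49 TPM (SD, n = 5 each), a log2 fold change of 0.66 (standard error 0.29, 95% interval 0.03 to 1.28) that did not pass (edgeR adjusted p = 0.58). The unadjusted exact permutation p on TPM was 0.0476. Without the 3 libraries with Saa1 above 1000 TPM, the log2 fold change was 0.20 (standard error 0.28). Without the 2 control libraries with high Fos it was 0.89 (standard error 0.34, edgeR adjusted p = 0.79). With the run as a covariate it was 0.51 (standard error 0.40), and without the third run 0.49 (standard error 0.25). The unadjusted exact permutation p on TPM was 0.0952 without the third run, which holds labelled knockout libraries 4 and 5.

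Id1, on chromosome 2 from 152736251 to 152737410 (ENSMUSG00000042745.9), is the ID gene most often used as a readout of BMP signalling. Controls held 4.85, 4.76, 3.46, 4.77 and 2.48 TPM. Labelled knockout libraries held 7.39, 3.75, 5.29, 10.2 and 2.88 TPM. Library 4, with 158 estimated counts, was the highest of all, and libraries 2 and 5 lay within the control range. Means were 4.06 ± 1.06 and 5.90 ± 2.95 TPM (SD, n = 5 each), with a log2 fold change of 0.48 (standard error 0.32, 95% interval -0.20 to 1.16, edgeR adjusted p = 0.72). Library 4 carried much of that difference, which was 0.18 without it.

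Id4, on chromosome 13 from 48261228 to 48266026 (ENSMUSG00000021379.2), encodes the member of the family best known from the nervous system. It was near the lower limit of the data, with 6 to 10 estimated counts in each control library and 9 to 21 in each labelled knockout library. Its level was 0.11, 0.09, 0.13, 0.12 and 0.08 TPM in controls and 0.12, 0.15, 0.13, 0.28 and 0.15 TPM in the labelled knockout libraries. Labelled knockout library 1 lay below the highest control, and the other 4 lay above it. The groups held 38 and 61 counts in all, a ratio of 1.61 (95% exact binomial interval 1.06 to 2.49, which covers counting error only). With a filter loose enough to test it, its log2 fold change was 0.59 (standard error 0.43, edgeR adjusted p = 0.81), and the exact permutation p on TPM was 0.0159, unadjusted. The difference of 0.0639 TPM was 0.0358 TPM without labelled knockout library 4. The exact permutation p was 0.143 without the third run, 0.0857 without the libraries of high Saa1 and 0.179 without those of high Fos. An antisense gene and a long noncoding gene overlap Id4 on the opposite strand, and neither exceeded 0.05 TPM in any library, although strand use is not given in the sources used here.

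Together the 4 ID genes summed to 56.6 to 80.2 TPM in control libraries. In labelled knockout libraries the sum was 75.5 TPM in library 1 and 106 to 117 TPM in the other 4, which lay above every control. Of those 4, libraries 2, 4 and 5 form the third run, which holds no control. Id2 made up 74.1 ± 4.32% of the sum in controls and 71.5 ± 7.38% in labelled knockout libraries (SD, n = 5 each), so the make-up of the sum differed by less than its spread. The share of Id1 ranged from 2.62% to 9.79% within the labelled knockout group alone, with libraries 1 and 4 at 9.79% and 9.64% and libraries 2 and 5 at 3.45% and 2.62%.

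Smad6 and Smad7 encode the inhibitory SMADs, which block receptors and receptor-activated SMADs and are induced by the signal that they limit. Smad6, on the minus strand of chromosome 9 from 63953076 to 64022059 (ENSMUSG00000036867.7), held 1.69, 1.94, 1.76, 1.13 and 1.21 TPM in controls. The labelled knockout libraries held 1.09, 1.64, 2.04, 2.29 and 1.23 TPM. The groups overlapped through most of their range, with library 1 of the labelled knockout group lowest of all and library 4 highest. The log2 fold change was 0.00 (standard error 0.25, 95% interval -0.54 to 0.54, edgeR adjusted p = 1), so that changes of up to about 0.54 in either direction lie within the interval. Its sign depended on the libraries, from -0.30 without the libraries with high Saa1 to 0.16 without control library 3.

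Smad7, on chromosome 18 from 75367529 to 75395935 (ENSMUSG00000025880.11), answers to TGF-beta as well as to BMP. Its controls held 1.59, 2.28, 1.39, 1.62 and 1.18 TPM. The labelled knockout libraries held 1.43, 1.77, 2.67, 2.36 and 1.36 TPM. Only labelled knockout libraries 3 and 4 exceeded the highest control. The log2 fold change was 0.19 (standard error 0.19, 95% interval -0.23 to 0.60, edgeR adjusted p = 0.84). It was 0.03 without labelled knockout library 3 and 0.38 with the run as a covariate.

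Smad9, on chromosome 3 from 54755582 to 54801257 (ENSMUSG00000027796.2), encodes a receptor-activated SMAD that is also a target of the pathway. It varied more than the other tested genes of the group, with a coefficient of variation of 72.0% in labelled knockout libraries against 35.6% in controls. Controls held 1.55, 1.75, 0.77, 2.35 and 1.53 TPM, and labelled knockout libraries 2.22, 2.01, 3.95, 1.17 and 0.23 TPM. Libraries 3 and 5 of the labelled knockout group were the highest and the lowest of all 10, with 374 and 26 estimated counts. The log2 fold change was 0.15 (standard error 0.48, 95% interval -0.91 to 1.21, edgeR adjusted p = 0.95), and it was -0.26 without labelled knockout library 3. Without the 3 libraries with high Saa1, 4 controls and 3 labelled knockout libraries remained and did not overlap for Smad9, 1 of the 10 members, as for 6.28% of the 18478 genes with at least 10 counts in that direction. The difference was then 1.33 TPM (exact permutation p = 0.0286, unadjusted and the smallest that 4 against 3 can give), while on counts the log2 fold change was 0.77 (standard error 0.27, edgeR adjusted p = 0.78). Of those 3 libraries, control library 4 was not low in Smad9, at 2.35 TPM with 6586 TPM of Saa1. Labelled knockout libraries 4 and 5 also belong to the third run, so high Saa1 and that run cannot be told apart in them. Without the third run the log2 fold change of Smad9 was 0.83 (standard error 0.27, edgeR adjusted p = 0.94). With the run as a covariate it was also 0.83 (standard error 0.50).

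Atoh8 encodes a basic helix-loop-helix factor induced by BMP in endothelium and hepatocytes. It lies on the minus strand of chromosome 6 from 72206177 to 72235577 (ENSMUSG00000037621.8). Controls held 8.31, 11.4, 8.35, 6.79 and 5.12 TPM, and labelled knockout libraries 9.45, 13.5, 4.59, 7.82 and 9.08 TPM. The highest and the lowest library were both in the labelled knockout group. The log2 fold change was 0.05 (standard error 0.28, 95% interval -0.56 to 0.67, edgeR adjusted p = 0.97), and it turned to -0.45 with the file number run as a covariate.

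Bambi encodes a membrane protein that resembles a type I receptor without its kinase and so acts as a decoy. It lies on chromosome 18 from 3507923 to 3516404 (ENSMUSG00000024232.2). Controls held 0.35, 0.45, 0.46, 0.31 and 0.34 TPM, and labelled knockout libraries 0.37, 0.66, 0.49, 0.44 and 0.41 TPM, from 28 to 58 estimated counts per library. Labelled knockout libraries 2 and 3 exceeded every control. The log2 fold change was 0.22 (standard error 0.25, 95% interval -0.31 to 0.75, edgeR adjusted p = 0.85). It was 0.40 without control library 3, 0.12 without control library 4 and 0.03 with the run as a covariate.

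Tmem100 encodes a small membrane protein of endothelium whose expression depends on ALK1 in developing vessels. It lies on chromosome 11 from 90030348 to 90036508 (ENSMUSG00000069763.3). It had 1, 18, 1, 1 and 5 estimated counts in controls and 8, 19, 0, 4 and 2 in labelled knockout libraries, or 0.00 to 0.67 TPM. Library 2 of each group was high (0.62 and 0.67 TPM) and every other library was at 0.26 TPM or less. The 0 in labelled knockout library 3 allows up to 3 counts, counting error only. The groups held 26 and 33 counts in all, a ratio of 1.28 (95% exact binomial interval 0.741 to 2.22), and with the loose filter the log2 fold change was 0.27 (standard error 0.92, edgeR adjusted p = 0.97). The interval covers counting error only, and the libraries of each group spread far more widely, with coefficients of variation of 146% in controls and 121% in labelled knockout libraries. The 2 libraries highest in Tmem100 were also the highest of their groups in Atoh8, at 11.4 and 13.5 TPM.

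The members were then set beside all genes. Of 12872 tested genes 0.357% were called at an adjusted p under 0.05, 24 higher and 22 lower, and none of the 8 tested members was among them by edgeR, DESeq2 or limma. At an unadjusted p under 0.05, Id2 and Id3 were higher, as were 5.03% of all tested genes. The 8 tested members had log2 fold changes from 0.00 to 0.66 with a median of 0.20, and over all tested genes the median was 0.00 and 50.4% lay above 0. Smad6 lay at 0, so the 7 others make up the lean towards higher values. No member had groups that did not overlap in TPM, where 1.57% of the 18478 genes with at least 10 counts did. On TPM, Id2, Id3 and Id4 had an exact permutation p under 0.05 in the higher direction, as did 5.02% of those genes.

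**Figure D2:**
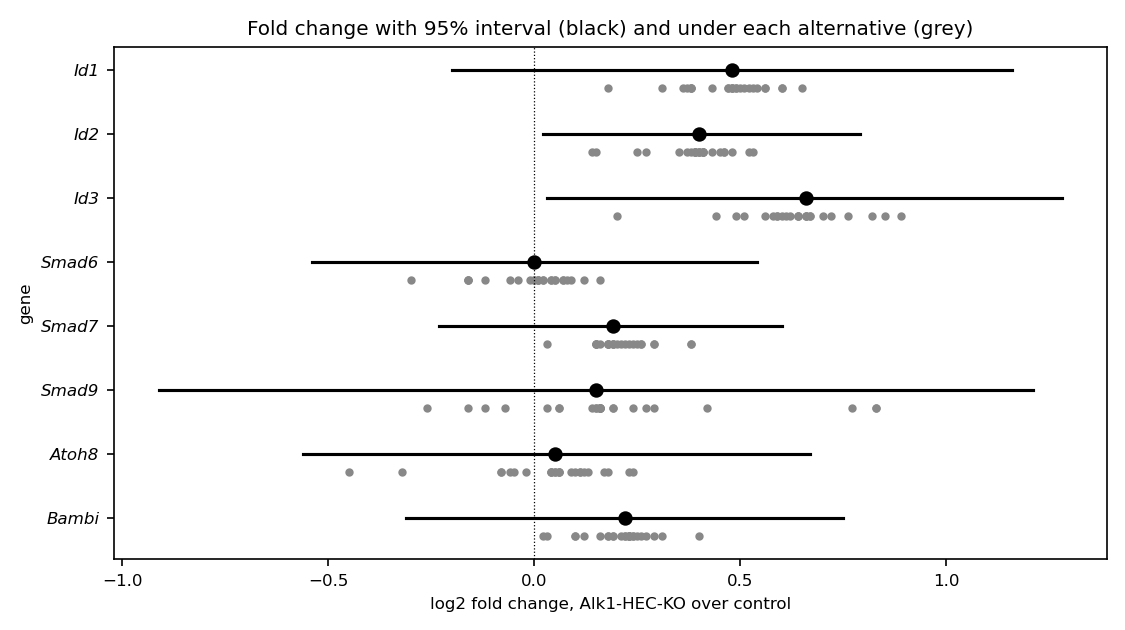
Log2 fold change of labelled knockout over control libraries (horizontal axis) for the 8 tested genes, with the 95% interval of the edgeR fit in black and the values under each alternative as grey points. Id1, Id2, Id3, Smad7 and Bambi stay above 0 in every alternative, from 0.02 for Bambi to 0.89 for Id3, while Smad6, Smad9 and Atoh8 fall on both sides.

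Because several of these genes are expressed in endothelium, each level was also expressed per 100 TPM of the 12 pan-endothelial markers. Smad6 had 3.03, 3.35, 5.25, 3.21 and 2.90 TPM per 100 TPM of markers in controls. The labelled knockout libraries had 1.52, 3.03, 2.76, 2.36 and 2.66. Library 2 of the labelled knockout group alone reached into the control range. The means were 3.55 ± 0.965 and 2.47 ± 0.578 (SD, n = 5 each, exact permutation p = 0.0159, unadjusted). Smad6 was the one member of 10 with a p under 0.05 on this scale, where 21.8% of the 18478 genes with at least 10 counts were lower by the same test, so a lower value on this scale is not particular to it. Of the 10 members 8 had a lower mean in the labelled knockout group, as did 83.1% of those genes, and none was higher with a p under 0.05, as were 0.828%. With the markers taken as their mean on the log2(TPM + 0.1) scale, the difference for Smad6 was -0.556 and the groups did not overlap, as for 6.54% of genes in that direction. On the first scale the difference was -1.08. It was -0.656 without control library 3 (exact permutation p = 0.0476) and -0.845 without labelled knockout library 1 (exact permutation p = 0.0556). Without the libraries of high Saa1 it was -1.20 and without the third run -1.41 (exact permutation p = 0.143 for both).

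For the ID genes the group means on this scale differed by less than the spread of the libraries, which was wide. Id3 had 32.9 ± 4.67 and 35.6 ± 15.1 TPM per 100 TPM of markers (exact permutation p = 0.849), and Id1 9.35 ± 2.82 and 8.23 ± 2.03 (p = 0.508 by the exact permutation test, SD, n = 5 each). Id2 had 125 ± 36.0 and 118 ± 49.5, and Id4 0.252 ± 0.0984 and 0.251 ± 0.0694. In labelled knockout libraries Id3 ran from 25.4 to 60.9 and Id2 from 69.3 to 171 on this scale. The difference of Id3 was 2.69, and -3.64 without labelled knockout library 5 (exact permutation p = 0.317). That of Id2 ran from -34.1 without the third run to 5.22 without labelled knockout library 1. Smad7 had 3.67 ± 0.801 and 2.85 ± 0.642 (exact permutation p = 0.127), and Tmem100 0.338 ± 0.431 and 0.368 ± 0.499. Egfl7 and Eng make up much of the marker sum, and Eng is itself a co-receptor and a target of the pathway.

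**Figure D3:**
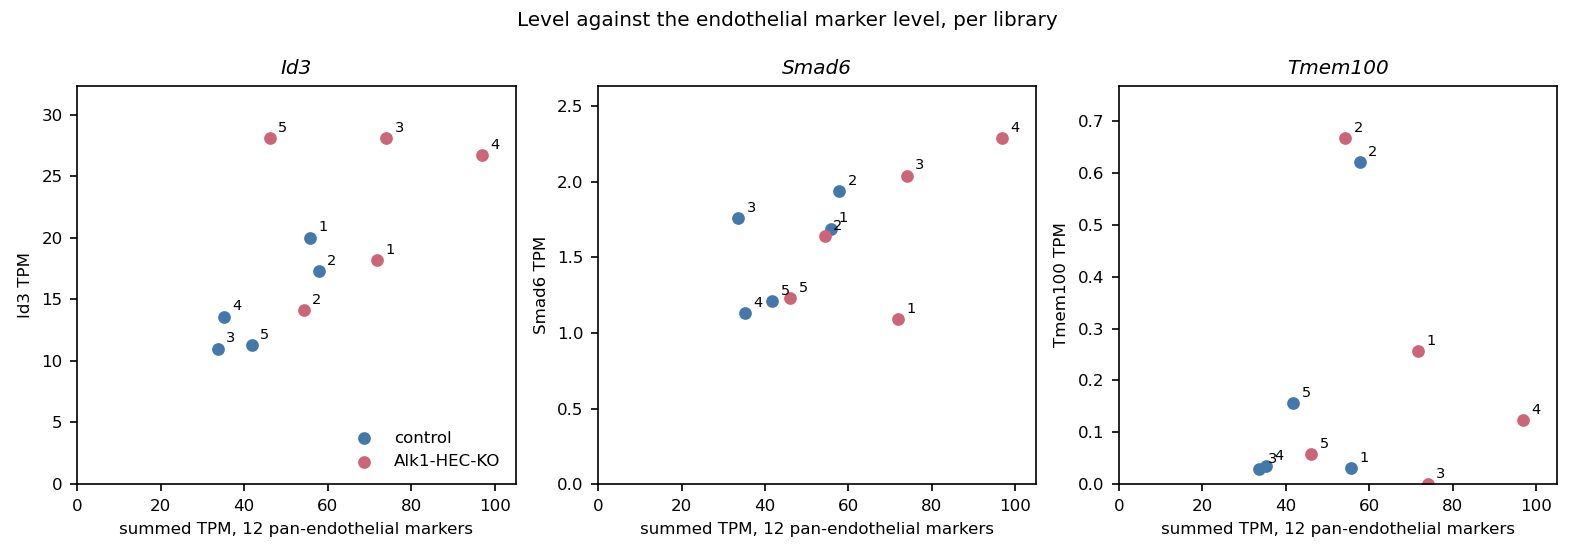
TPM of Id3, Smad6 and Tmem100 (vertical axes) against the summed TPM of 12 pan-endothelial markers (horizontal axis) in each library, with library numbers, controls in blue and labelled knockout libraries in red. Labelled knockout library 4 has the highest marker sum (96.9 TPM) and the highest Smad6 (2.29 TPM), and Tmem100 is high in library 2 of each group.

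The starts of 6 of the 10 genes are in the RefSeq promoter table used here (GRCm38.p6). The 250 bases before the start were searched on both strands for GGCGCC, a GC-rich element bound by SMAD1 and SMAD5, for GTCTAGAC and CAGACA, forms of the SMAD-binding element, and for CAGGTG, an E-box of the kind bound by E proteins. GGCGCC was found in Smad9, Id4 and Id2, and in 9.59% of all 32851 promoter windows. GTCTAGAC and CAGACA were found in none of the 6 and in 0.167% and 17.1% of all windows. CAGGTG was found in Smad9 alone, and in 17.2% of all windows. The windows of Id2 and Id3 lie partly or wholly in annotated exons of longer transcripts and are not shown. Those of Smad9 (chr3:54755332-54755581, plus strand) and Id4 (chr13:48260866-48261115, plus strand), which hold GGCGCC, and of Smad6 (chr9:64022060-64022309, minus strand), which holds none of the 4, are given 5′ to 3′ with matches in capitals. They are shown because they let Smad9, the tested member with the widest spread, be set beside Smad6, whose log2 fold change was nearest 0, and beside Id4, the member with the lowest mean TPM. The window of Atoh8 likewise holds none of the 4 and is not shown. A link between these matches and the levels was not tested.
Smad9: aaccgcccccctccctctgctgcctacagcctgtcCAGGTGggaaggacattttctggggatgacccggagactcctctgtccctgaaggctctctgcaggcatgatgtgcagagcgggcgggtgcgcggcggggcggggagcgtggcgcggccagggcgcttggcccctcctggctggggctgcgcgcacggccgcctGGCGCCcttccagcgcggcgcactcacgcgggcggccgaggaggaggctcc
Id4: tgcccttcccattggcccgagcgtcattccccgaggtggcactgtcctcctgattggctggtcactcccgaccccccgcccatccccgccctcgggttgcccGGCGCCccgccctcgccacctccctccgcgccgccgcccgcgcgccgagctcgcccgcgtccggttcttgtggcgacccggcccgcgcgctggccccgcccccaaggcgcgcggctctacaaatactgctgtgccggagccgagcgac
Smad6: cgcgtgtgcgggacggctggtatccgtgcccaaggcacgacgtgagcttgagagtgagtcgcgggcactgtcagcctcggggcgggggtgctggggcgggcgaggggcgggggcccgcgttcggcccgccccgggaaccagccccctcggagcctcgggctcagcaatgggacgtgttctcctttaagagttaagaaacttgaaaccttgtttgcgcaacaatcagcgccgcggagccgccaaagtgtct
In Smad9 the match to GGCGCC begins at base -51 and the match to CAGGTG at base -215, counted so that -1 is the last base before the start, and in Id4 GGCGCC begins at base -148.

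The 8 tested genes and Hamp, the hepcidin gene, did not in general rise and fall together on log2 CPM (counts scaled to library size). Over their 36 pairs, with group means removed, the median Pearson r was 0.01 and 18 pairs were positive. Hamp is not one of the 10 genes, so this summary is not one of the members alone. Its r was 0.52 with Id1 and 0.40 with Id3, and negative with the other tested genes. By Pearson's r the closest pair was Id2 and Bambi, with r = 0.74 (permutation p = 0.0139, Benjamini-Hochberg adjusted p = 0.50, n = 10) and Spearman's rho = 0.68 (permutation p = 0.0339, adjusted p = 0.473). It was 0.77 without the 2 libraries farthest from the median of Id2, and 0.68 with run means removed as well, since runs of 3 or 4 libraries are too small for an r of their own. No pair passed after adjustment. Another measure put another pair first. Atoh8 and Bambi had rho = 0.75 against r = 0.59 (permutation p = 0.0232 and 0.0827, adjusted p = 0.473 and 0.522, n = 10), with r = 0.78 without the 2 farthest libraries and 0.79 with run means removed. On log2(TPM + 0.1), Smad6 and Smad7 had r = 0.79, against 0.67 for Id2 and Bambi. The largest r in size on that scale was negative, -0.82 for Bambi and Hamp, against -0.52 on log2 CPM (permutation p = 0.153, adjusted p = 0.522). The negative r of Id2 and Smad9 (-0.65) was -0.06 on log2(TPM + 0.1). Id1 and Hamp, both BMP targets in hepatocytes, had r = 0.52 and rho = 0.59 (permutation p = 0.142 and 0.101, adjusted p = 0.522 and 0.473, n = 10), with r = 0.58 without the 2 farthest libraries and 0.49 with run means removed. Smad6 and Smad7 had r = 0.55 and rho = 0.65 (permutation p = 0.108 and 0.0555, adjusted p = 0.522 and 0.473, n = 10), with r = 0.50 without the 2 farthest and 0.77 with run means removed.

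**Figure D4:**
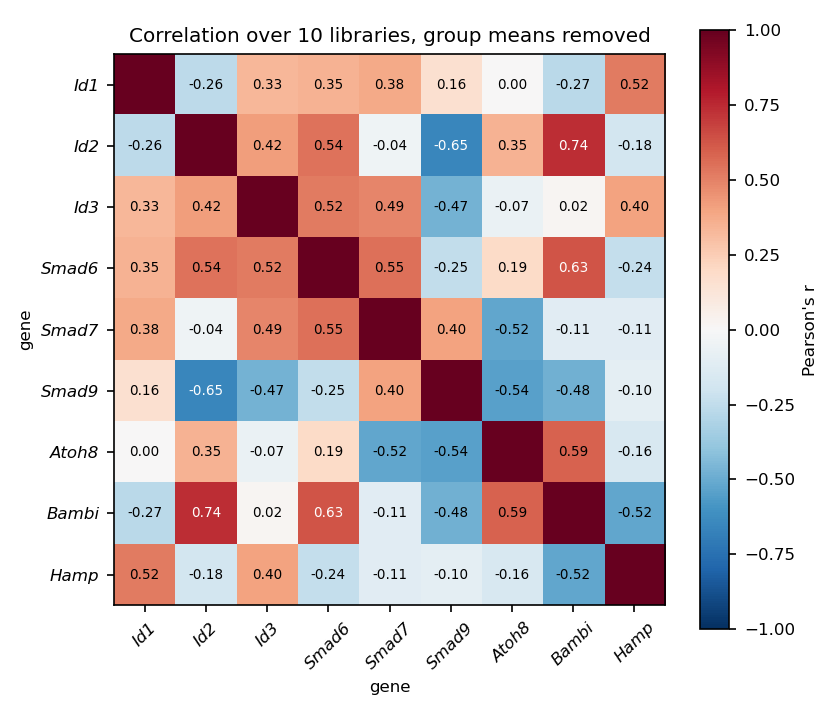
Pearson's r over 10 libraries between log2 CPM of each pair of genes after group means were removed (colour and printed value, both axes list the genes). Id2 and Bambi reach 0.74 and Id2 and Smad9 -0.65, and none passed adjustment over the 36 pairs.

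Among 9562 other tested genes with at least 1 TPM in both groups, those most like a member by the same r were listed without a test, because the highest of so many values over 10 libraries is high in any case. For Id3 they were Hes1, Prickle3 and Nuak2 (r = 0.92, 0.92 and 0.91). For Id1 they were Serpinh1, Prpf38b and Cpq (r = 0.92, 0.91 and 0.91), and for Id2 Tubgcp6, Pex10 and Actb (r = 0.98, 0.93 and 0.92). For Smad7 the closest was Rnf43 (r = 0.94), for Smad6 Rsbn1l (r = 0.95), for Smad9 Rprd1b (r = 0.96), for Atoh8 Ddx10 (r = 0.97) and for Bambi Manea (r = 0.91).

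The rest of the pathway gave no called gene either. None of 12 tested BMP receptors and co-receptors passed, with 6 pointing higher and 6 lower and a median log2 fold change of -0.04. Their most abundant genes were those of hepcidin control, Tmprss6 (152 ± 25.2 and 152 ± 25.8 TPM), Tfr2 (138 ± 22.7 and 151 ± 31.6 TPM) and the hemojuvelin gene Hfe2 (29.3 ± 7.75 and 39.5 ± 13.8 TPM, SD, n = 5 each). None of 9 BMP ligands passed (median 0.02), among them Gdf2, which encodes the ALK1 ligand BMP9 (3.10 ± 0.854 and 3.30 ± 0.844 TPM), Bmp2 (2.44 ± 1.07 and 2.73 ± 0.585 TPM) and Bmp4 (2.01 ± 0.939 and 2.04 ± 0.879 TPM, SD, n = 5 each). On counts the log2 fold change of Bmp4 was 0.59 (standard error 0.27, edgeR adjusted p = 0.58), although its TPM means were nearly equal. The largest difference of a ligand, looked up after its values were seen, was that of Bmp7, with 0.707 to 1.20 TPM in controls and 0.258 to 0.657 TPM in labelled knockout libraries. Those ranges did not overlap, as for 1.57% of the 18478 genes with at least 10 counts. The log2 fold change of Bmp7 was -1.05 (standard error 0.28, edgeR adjusted p = 0.23). Of 5 signal-transducing SMADs 1 pointed higher and 4 lower, with Smad1 at 0.11 (standard error 0.21), Smad4 at -0.21 (0.15) and Smad2 at -0.29 (0.17) on the log2 scale. None of 12 tested brakes on the pathway passed (median -0.07), whose most abundant members Tob1, Ppm1a and Fkbp1a lay at -0.38, -0.23 and 0.18.

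Of 10 other tested BMP targets 7 pointed higher and none passed, with a median log2 fold change of 0.55 against 0.00 over all tested genes. That of Hamp was 1.03 (standard error 0.34, edgeR adjusted p = 0.38). Another 5 were too low for the filter. The groups did not overlap for Msx1 (0.0285 to 0.141 and 0.255 to 0.475 TPM) and Hey1 (0.0413 to 0.112 and 0.171 to 0.464 TPM). They overlapped for Hey2, Msx2 and Edn1. Over the genes with at least 10 counts, 1.57% did not overlap. Hamp averaged 1870 ± 854 and 3850 ± 1300 TPM, its copy Hamp2, with which reads could be shared, 115 ± 66.0 and 169 ± 135 TPM, and Eng 12.9 ± 2.70 and 14.7 ± 4.47 TPM (SD, n = 5 each). The E protein genes, whose products bind ID proteins, all pointed higher without passing. Tcf4 had the largest difference of the 3, from 1.84 ± 0.434 to 3.01 ± 0.840 TPM (log2 fold change 0.54, standard error 0.17, edgeR adjusted p = 0.34), followed by Tcf3 (0.14, 0.19) and Tcf12 (0.11, 0.17). Among 5 tested targets of the TGF-beta branch, which signals through SMAD3, Tgfb1 had 3.79 ± 0.602 and 7.04 ± 2.57 TPM (log2 fold change 0.81, standard error 0.21, edgeR adjusted p = 0.19), Col1a1 0.96 (standard error 0.68) and Tgfbi -0.01 (0.26), and none passed.

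Marker lists of other cell types differed in direction beside these values. All 8 Kupffer cell markers pointed higher, with sums of 82.3 to 134 TPM in controls against 128 to 268 TPM, and all 6 tested markers of recruited leukocytes did so, with sums of 20.8 to 35.3 and 34.5 to 100 TPM. None of those markers was called. Of 8 markers of continuous endothelium 7 pointed higher and 1 lower, Vwf, at a log2 fold change of -1.16 (standard error 0.39, edgeR adjusted p = 0.38). Plvap and Aqp1 lay at 0.14 and 0.49 without being called. The 5 called higher were Ly6c1, Cd34, Emcn, Cldn5 and Cav1. That count fell to 1 (Ly6c1) with the run as a covariate, to 2 without the libraries of high Saa1, to 2 without those of high Fos, and to 3 without the third run. It was 3 without control library 5 and 3 in the fit with the replicate number as a block. The median log2 fold change was 0.03 over 10 sinusoidal, 0.07 over 8 hepatocyte, 0.20 over 8 stellate cell and 0.09 over 3 tested cholangiocyte markers. All 9 tested immediate early genes pointed lower, with a median of -0.96, and the 9 acute phase genes all pointed higher (median 0.90). No gene of either list was called. The part of these lists in the levels of the ID and SMAD genes was not tested.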

How the data were processed

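Levels are the TPM deposited by the authors, and tests use the estimated counts deposited by the authors, rounded to whole numbers, which moved no library total by more than 0.00078%. Of the nonzero estimated counts 38.3% were whole within 1e-06. Reads were trimmed with Trim Galore 0.6.4 and handled with kallisto 0.4.6 on GRCm38.p6, per the submitters' processing notes. The step from transcripts to genes and strand use are not given in the sources used here. Symbols and coordinates came from GENCODE M21 (GRCm38) by Ensembl ID without version, which matched 55144 of 55385 IDs.

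Counts were filtered with filterByExpr, scaled by TMM (factors 0.869 to 1.107) and fitted in edgeR 4.0.16 (R 4.3.3) by its robust quasi-likelihood F-test with group as the one term, with Benjamini-Hochberg adjustment over 12872 genes. A standard error is the log2 fold change over the root of F. DESeq2 1.42.0 and limma 3.58.1 were alternatives. The fit was tested on simulated data. Exact two-sided permutation tests compared TPM. Log2 CPM used a prior count of 2. Pair correlations were permuted 100000 times within groups. No 2 libraries agreed within sampling noise.

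The 10 genes, all named, and the lists were chosen with earlier results of these data known. The rule named, from each pathway list, called genes and the 3 most abundant, and the genes with the highest r to each member. Egfl7, Eng, the named markers of continuous endothelium and the named BMP targets too low for the filter were named after their values were seen.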

Additional observations from a re-analysis of the deposited data

Results flagged for a closer look

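Of 20 groups of 5 libraries checked for a library far from the rest (10 genes in each group, in TPM), 2 had one, where chance gives about 1 in 20 groups. Id4 stood at 0.281 TPM in labelled knockout library 4 against 0.125 to 0.153 TPM in the other 4. Tmem100 stood at 0.621 TPM in control library 2 against 0.0291 to 0.156 TPM in the other controls. Both genes were too low for the count filter, and both values rest on few counts, 21 for Id4 and 18 for Tmem100.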

How the results depend on the processing

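No member was called under any alternative run (leaving out each library, the replicate block, scalings, filters, tests, the 0.10 threshold, the file number run, and fits without libraries of high Saa1, high Fos or the third run). The lowest adjusted p was 0.19, for Id3 without labelled knockout library 2. Over all genes, 24 were called higher and 22 lower. Leaving out each library gave 18 to 40 higher and 15 to 43 lower, the most without labelled knockout library 1. The run as a covariate gave 2 and 3, leaving out the third run 8 and 10, leaving out high Saa1 11 and 19, leaving out high Fos 7 and 10, DESeq2 82 and 70, and limma on log2(TPM + 1) 20 and 13. The causes were not tested. Libraries with the same replicate number share only a number (correlations of their deviations from -0.10 to 0.28), and the replicate block gave 16 higher and 24 lower. Smad6, Smad9 and Atoh8 took both signs, none of them called. The unadjusted permutation p of Id2 on TPM lost its place under 0.05 in 9 of the 10 fits that left out a library, with differences from 16.9 to 22.4 TPM. That of Id3 lost it in 7 of 10. Id4 and Tmem100 had 0 to 21 counts per library.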

Other observations

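The SMAD transcripts that carry the signal were lowest of the 10 libraries in labelled knockout library 5. Smad1 stood there at 1.67 TPM, Smad5 at 1.53, Smad4 at 3.88, Smad2 at 2.10 and Smad9 at 0.23 TPM. Control library 3 was second lowest for the same 5 genes, at 2.34, 1.88, 4.35, 2.42 and 0.77 TPM. Smad3 did not follow that order, being lowest in control library 5 at 1.30 TPM and at 1.40 TPM in labelled knockout library 5. Id3 was at 28.1 TPM in labelled knockout library 5 and at 10.95 TPM, its lowest, in control library 3, whereas Id1 was low in both, at 2.88 and 3.46 TPM. Mitochondrial transcripts took 12.01% of counts in labelled knockout library 5 and 16.6% in control library 3, and from 5.82% to 12.77% in the others. Saa1 stood at 13331 TPM in the first and at 146 TPM in the second. The TMM factors were also the lowest of the 10 libraries there, at 0.892 in labelled knockout library 5 and 0.869 in control library 3. The ranks above are on TPM, which does not use those factors. The hepatocyte marker sums were likewise the lowest, at 60500 TPM in labelled knockout library 5 and 50500 TPM in control library 3. Low TPM in these libraries was not seen in the SMAD genes alone, but it was not general either. Id2 stood at 79.0 TPM in labelled knockout library 5. On log2 CPM, which does use those factors, Smad9 was still lowest there, at 0.57 against 2.26 to 4.07 in the others. The part of scaling, mitochondrial share or Saa1 in the SMAD levels was not tested. These libraries were singled out after their values were seen.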
